A study of Mus musculus with 16 samples.

Results

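The erythroid and residual mouse globin genes are 29 genes chosen by symbol: the adult mouse globins, regulators of red cell formation, red cell enzymes, membrane and skeleton proteins of the red cell, and the enzymes of heme synthesis. 28 of them had a row among the 52459 genes of the count table, and all 28 passed the low-count filter. Ahsp was not analysed here. RNA came from bone marrow cells of Townes mice, sorted as live, single, CD45-, Ter119- and CD31- cells that carried CD51 and CD140a, a gate meant for mesenchymal stromal cells and against leukocytes, red cell precursors and endothelium. 4 libraries came from SS mice (hα/hα::βS/βS, homozygous for human sickle beta globin) and 4 from SA mice (hα/hα::βA/βS, with 1 sickle and 1 normal human beta globin). The mice of both genotypes carry the human alpha globin gene in place of the mouse gene, and the human beta genes replaced the major and minor mouse beta globin genes. The study was set up to compare the stromal transcriptome of sickle mice with that of SA controls. The labels give neither age nor sex.

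Total counts ran from 24797857 to 31117007 per library. 1 of the 2 lanes of SS replicate 4 is titled SS but has SA as its source and mouse group, and it was kept in SS by its title. Titles carry date-like numbers which are the same for every SA library, differ from these in SS replicates 1, 3 and 4, and differ again in SS replicate 2, and what the numbers stand for is not stated, so that they and the genotype cannot be told apart. SS replicate 2 also stood apart by Xist (57347 counts, at most 420 in any other library) and the Y-linked gene Ddx3y (0.434 CPM, at least 79.3 CPM in the others). The labels do not say that replicates came from separate animals, so the p-values may cover no more than the scatter of the libraries themselves. Counts over the 28 genes are also given without SS replicate 2 and without SS replicate 4.

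Red cells form in the marrow from precursors in which the factors GATA1 and KLF1 switch on globin genes, heme enzymes and membrane proteins under the hormone erythropoietin. Alpha and beta globin chains join with heme to make haemoglobin. In the Townes mouse the adult chains are human, so reads counted to the adult mouse globin genes are a remainder. In bulk libraries such as these, fewer cells of a type and less RNA per cell cannot be told apart.

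Start regions of 5 of the genes are shown because GATA factors bind GATA sequences and KLF1 binds CACCC sequences there. They are the 250 bases before the RefSeq transcription start on GRCm38.p6, 5′ to 3′ on the gene's strand. All are reference sequence, and whether the Townes mice still carry the windows of the replaced adult globin genes was not tested. Capitals mark matches, on either strand, to the GATA sequence AGATAA, to its variant TGATAA and to CACCC, so that reverse complements are in capitals too. The 3 CACCC matches of Alas2 lie end to end on the opposite strand, without overlap.
Hbb-bt, chr7:103813924-103814173, minus strand: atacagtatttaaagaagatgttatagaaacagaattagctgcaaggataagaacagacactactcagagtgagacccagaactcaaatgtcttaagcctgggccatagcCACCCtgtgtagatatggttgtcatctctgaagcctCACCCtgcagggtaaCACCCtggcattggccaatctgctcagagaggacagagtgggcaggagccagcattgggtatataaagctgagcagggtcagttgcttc
Hbb-bs, chr7:103827929-103828178, minus strand: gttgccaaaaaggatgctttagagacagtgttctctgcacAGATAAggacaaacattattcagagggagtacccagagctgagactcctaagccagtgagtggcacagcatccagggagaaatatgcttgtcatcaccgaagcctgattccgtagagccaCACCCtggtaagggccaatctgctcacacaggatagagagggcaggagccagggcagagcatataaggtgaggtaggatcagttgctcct
Hba-a1, chr11:32283422-32283671, plus strand: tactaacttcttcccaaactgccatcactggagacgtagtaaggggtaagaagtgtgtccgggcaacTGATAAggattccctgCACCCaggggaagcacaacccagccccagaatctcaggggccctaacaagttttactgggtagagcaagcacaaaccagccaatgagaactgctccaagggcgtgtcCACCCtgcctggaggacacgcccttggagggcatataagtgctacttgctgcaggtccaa
Alas2, chrX:150547167-150547416, plus strand: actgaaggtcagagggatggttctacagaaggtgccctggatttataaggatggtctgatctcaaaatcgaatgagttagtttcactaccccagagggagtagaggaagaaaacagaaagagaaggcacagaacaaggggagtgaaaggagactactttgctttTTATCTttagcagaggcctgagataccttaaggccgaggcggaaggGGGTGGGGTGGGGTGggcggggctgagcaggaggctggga
Klf1, chr8:84901732-84901981, plus strand: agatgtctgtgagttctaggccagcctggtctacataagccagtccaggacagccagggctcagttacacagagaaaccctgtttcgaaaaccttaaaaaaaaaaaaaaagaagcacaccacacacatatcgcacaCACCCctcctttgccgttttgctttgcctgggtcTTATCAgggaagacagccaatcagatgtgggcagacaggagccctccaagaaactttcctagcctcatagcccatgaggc

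A window was at hand for 23 of the 29 genes (25 windows, since Alad and Uros have 2 starts). At least 1 GATA sequence of these (AGATAA or the variant TGATAA) stood in 14 of these 25 windows, or 56%, against 16.6% of all 32851 windows in the reference table. The genes with such a match included Alas2, Epb42, Epor, Ermap, Hbb-bs, Hemgn, Klf1, Rhag, Rhd and Trim10. CACCC stood in 17 of 25 windows (68%) and in 52% of all windows. Hbb-bt had 3 CACCC matches and neither GATA sequence, while Hbb-bs had 1 CACCC and 1 AGATAA. The windows of Hba-a1 and Hba-a2, both among the 14, were identical over the 247 bases that aligned. Those of Hbb-bs and Hbb-bt were identical over 72.7% of 238 aligned bases. A match of letters describes the window and not a bound site.

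Erythroid transcripts were present in every library in spite of the Ter119 gate. None of the 9 analysed erythroid markers, among them Alas2, Klf1, Slc4a1, Epb42, Rhag, Trim10 and Hemgn, was at 0 in any library. Slc4a1, the band 3 anion exchanger of the red cell membrane (chromosome 11, 102348824 to 102366203, GRCm38), had a mean over the 8 libraries of 55.6 CPM per kb of exon, the scale used here to compare genes. Pdgfra, which encodes the sorted antigen CD140a, had a mean of 38.0 CPM per kb. The order differed between libraries. Slc4a1 was below Pdgfra in SA replicates 3 and 4 and SS replicates 2 and 4 (19.71 to 30.39 against 42.61 to 47.45 CPM per kb). In SA replicates 1 and 2 and SS replicates 1 and 3 it was above Pdgfra.

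Among the analysed genes, mean levels per length ran from 1.06 CPM per kb for Hba-a2 to 139 CPM per kb for Car2. Car2 and Car1, carbonic anhydrase genes on chromosome 3 (14886273 to 14900770 and 14766216 to 14808368, GRCm38), were the most abundant, Car1 at 127 CPM per kb. Slc4a1 followed, then Hemgn at 47.6 and the water channel Aqp1 at 41.0 CPM per kb. The adult globins Hba-a2, Hbb-bs and Hbb-bt lay near the other end, with Hbb-bt at 2.42 and Hbb-bs at 1.35 CPM per kb. Hba-a1 stood at 11.3 CPM per kb, close to the median of 10.6 over the 28 genes. Every adult globin was below Slc4a1 per length. Car2 and Aqp1 are also used outside the red cell lineage, and the heme enzymes other than Alas2 are made in most cells.

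**Figure D1:**
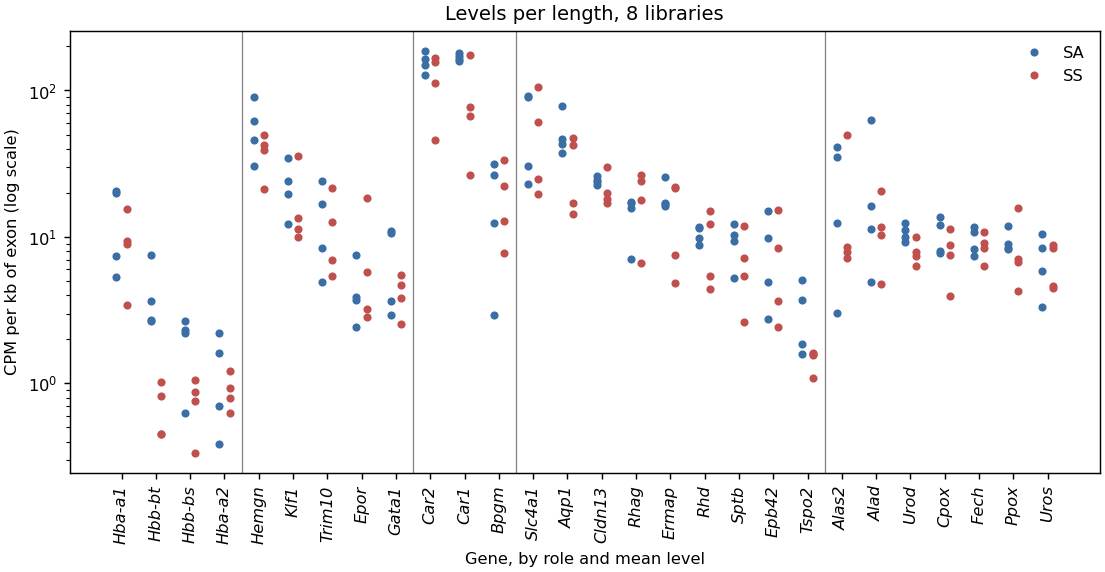
Level of each of the 28 genes in CPM per kb of exon (log scale), 1 point per library (n = 4 per genotype), ordered by role (adult globins, regulators, red cell enzymes, membrane and skeleton, heme synthesis) and by mean level. Car2 and Car1 are highest, and Hba-a2, Hbb-bs and Hbb-bt are among the lowest.

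The extremes were unevenly spread over the libraries. SS replicate 2 held the lowest value of 14 of the 28 genes, where it was lowest for 14.5% of all tested genes, and the highest of 0. SA replicate 2 held the highest value of 12 of the 28, against 17.0% of all tested genes. The ratio of the highest to the lowest library ran from 1.76 for Cldn13, a mouse claudin known from erythroid cells, to 16.8 for Hbb-bt. Alas2 spanned 16.4-fold and Alad 13.3-fold.

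**Figure D2:**
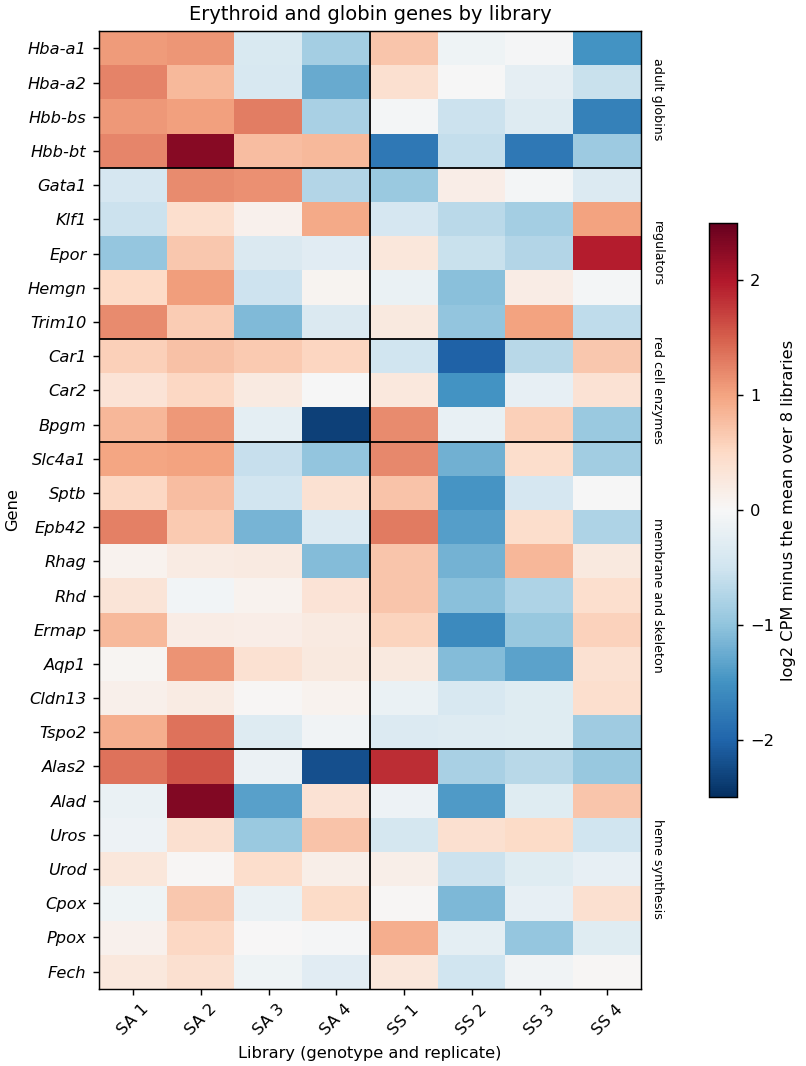
Log2 CPM of the 28 genes in each library minus the gene's mean over the 8 libraries, with genes in rows by role and libraries in columns (SA left, SS right of the line). SS replicate 2 is blue for most membrane genes and for Car1 and Car2, and the row of Hbb-bt is red in every SA and blue in every SS library.

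Between genotypes, edgeR's quasi-likelihood test called none of the 28 genes at an adjusted p under 0.05, and 0% of the 17316 genes tested (0 genes). At an unadjusted p under 0.05 it found 1 of the 28, Hbb-bt, against 6.98% of all genes (2.96% lower in SS and 4.03% higher). DESeq2 called 1 of the 28 lower in SS, also Hbb-bt, against 0.704% of the 19472 genes to which it gave an adjusted p, and none higher, against 0.914%. The log2 fold change of SS over SA was below 0 for 25 of the 28, against 51% of all tested genes, with a median of -0.39 against -0.01 over all genes. Epor, Rhag and Bpgm were the exceptions. The count below 0 was 21 of 28 without SS replicate 2 (median -0.18), 23 of 28 without SS replicate 4 (median -0.42) and 21 of 28 without SA replicate 2 (median -0.24).

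Leukocyte transcripts varied between the same libraries. The summed level of 15 pan-leukocyte markers was 4541, 5088, 1671 and 838 CPM in SA replicates 1 to 4 and 3069, 506, 1333 and 374 CPM in SS replicates 1 to 4, with no marker at 0. The 9 erythroid markers summed to 1128, 1192, 486 and 489 CPM in SA and to 1193, 299, 814 and 546 CPM in SS, so that SA replicates 1 and 2 and SS replicate 1 were the highest on both lists. Without these 3 libraries the log2 fold change was below 0 for 16 of the 28 genes (median -0.19, 48.4% of all tested genes), and with the pan-leukocyte level as a covariate for 17 of the 28 (median -0.16, 50.8% of all). The 10 stromal markers were lowest in the same 3 libraries, at 21560 to 24600 CPM against 27770 to 49660 CPM in the others.

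**Figure D3:**
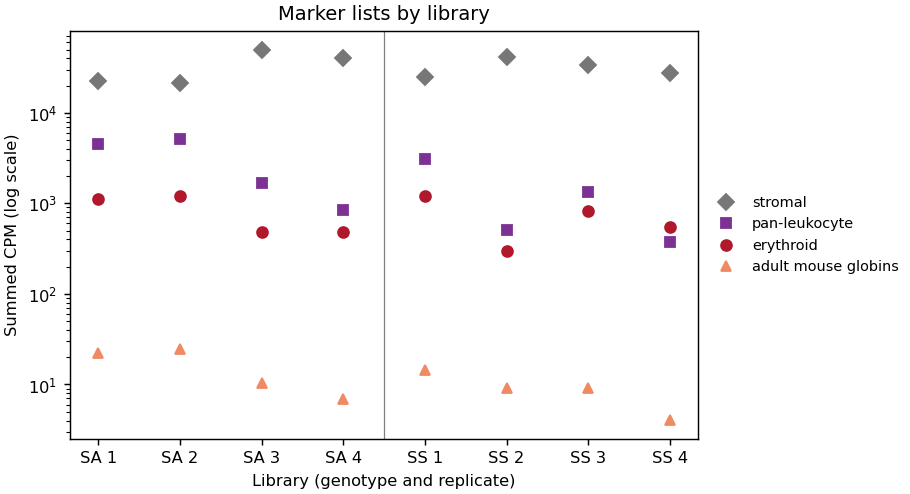
Summed CPM (log scale) of the stromal (10 genes), pan-leukocyte (15), erythroid (9) and adult mouse globin (4) lists in each library. SA replicates 1 and 2 and SS replicate 1 have the highest leukocyte, erythroid and globin sums and the lowest stromal sums.

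Markers of other cell types are set beside these. Neutrophil markers (12 genes) summed to 5973 to 34360 CPM in SA and 1319 to 16570 CPM in SS, and megakaryocyte markers (10 genes) to 91.2 to 606 and 49.4 to 130 CPM. Macrophage markers (10 genes) summed to 1031 to 1520 CPM in SA and 1061 to 2370 CPM in SS, B cell markers (10 genes) to 468 to 651 and 343 to 393 CPM, and endothelial markers (10 genes) to 19.9 to 118 and 21.7 to 148 CPM. Osteoclast markers (8 genes) summed to 169 to 538 and 146 to 366 CPM, with Calcr at 0 in every library. Vcam1 is on both the macrophage and the stromal list, and these sums need not come from the named cell type alone. Gata1 is also a megakaryocyte gene, Aqp1 an endothelial gene and Car2 an osteoclast gene. Of the markers, 2 megakaryocyte, 3 B cell and 3 osteoclast genes were at 0 in at least 1 library. The part of these cells in the results was not tested beyond the leukocyte covariate and the omission of libraries.

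The adult globins make the protein chains of haemoglobin. Hbb-bt, the beta globin gene next to Hbb-bs (chromosome 7, 103812524 to 103813996 and 103826534 to 103828096, GRCm38), had 68, 153, 56 and 52 counts in SA replicates 1 to 4 and 9, 20, 9 and 18 counts in SS replicates 1 to 4. Every SS library was below every SA library, and Hbb-bt was the only one of the 28 genes without overlap. Over all tested genes, 1.55% had every SS library below every SA library and 2.36% every SS library above every SA library. SA averaged 2.92 ± 1.63 CPM and SS averaged 0.485 ± 0.202 CPM (SD, n = 4 each). The log2 fold change was -2.58 (SE 0.92, edgeR adjusted p = 0.695, DESeq2 adjusted p = 0.00755). It ran from -2.83 to -2.11 with each library left out and was -1.80 without the 3 leukocyte-rich libraries and -2.63 with the leukocyte covariate. edgeR called it under none of these settings. The human beta genes that replaced the mouse ones differ between SS and SA, and the origin of the reads counted to Hbb-bt was not tested. A change in its expression therefore cannot be told apart from this difference at the replaced genes.

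Hbb-bs had 47, 49, 61 and 13 counts in SA and 23, 16, 19 and 8 in SS. SA replicate 4 lay within the SS range and the other SA libraries above it. The log2 fold change was -1.36 (SE 0.94, edgeR adjusted p = 0.786). The transcripts of Hbb-bs and Hbb-bt are 93.2% identical over 621 aligned bases, and 65.8% of the 50-base windows of Hbb-bs occur in Hbb-bt, so that reads from shared stretches cannot be assigned with certainty.

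Hba-a1, an alpha globin gene on chromosome 11 (32283511 to 32284465), had 433, 482, 180 and 117 counts in SA and 359, 200, 215 and 86 in SS. The genotypes overlapped, with SA replicate 4 and SS replicate 4 lowest. Hba-a2, on the same chromosome (32296489 to 32297298), had 39, 31, 14 and 7 counts in SA and 23, 17, 15 and 13 in SS. Their transcripts differ at 1 of 538 aligned bases, so that the split between them is uncertain. Of the 50-base windows of Hba-a2 86.9% occur in Hba-a1, against 67.5% of those of Hba-a1 in Hba-a2. In every library Hba-a1 had more counts than Hba-a2, by 6.62-fold to 16.7-fold. The part of this unequal sharing in the ratio was not tested. The log2 fold changes were -0.52 (SE 0.62) for Hba-a1 and -0.46 (SE 0.94) for Hba-a2, and both were above 0 with the leukocyte covariate (0.48 for each) and without the 3 leukocyte-rich libraries (0.18 and 0.51).

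**Figure D4:**
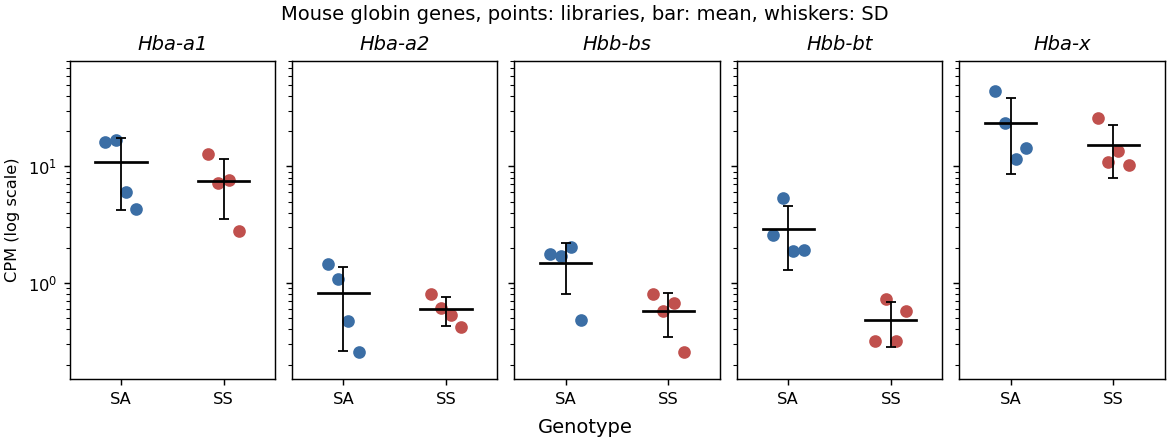
CPM (log scale) of the 4 adult mouse globin genes and the embryonic gene Hba-x by genotype. Points are libraries, the horizontal bar is the mean and whiskers are the SD (n = 4). Only the panel of Hbb-bt shows no overlap between SA and SS.

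Globin genes outside the 29 mostly had low counts. Hba-x, the embryonic zeta globin gene next to Hba-a1, was the exception, at 1186, 683, 343 and 391 counts in SA and 737, 300, 387 and 322 in SS. It exceeded Hba-a1 in every library, by 1.42-fold to 3.74-fold in counts, and per length it stood at 20.7 CPM per kb against 11.3. Its transcript shares no 50-base window with that of Hba-a1 (0%). The embryonic beta genes Hbb-bh1 (10 to 29 counts per library) and Hbb-y (0 to 9 counts) were far lower, as was Hbq1a (0 to 32 counts). Per length Hbb-bh1 stood at 1.10 CPM per kb, close to the adult gene Hba-a2 at 1.06 CPM per kb. Hbq1b was at 0 counts in all 8 libraries, against a floor of 3 counts per library (0.0967 to 0.113 CPM).

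Of the 5 regulators of red cell formation, 4 had a log2 fold change below 0, against 51% of all tested genes, and none passed. The count was 3 of 5 with the leukocyte covariate, without the 3 leukocyte-rich libraries and without SS replicate 2, and 5 of 5 without SS replicate 4. Gata1, the zinc finger factor that switches on erythroid genes, was at 8.91, 26.8, 26.0 and 7.10 CPM in SA replicates 1 to 4 and at 6.24, 13.3, 11.4 and 9.29 CPM in SS. SA replicates 2 and 3 were high and all other libraries overlapped (log2 fold change -0.77, SE 0.52, edgeR adjusted p = 0.778). Hemgn, a nuclear protein of blood progenitors, was at 155, 227, 77.1 and 116 CPM in SA and at 98.1, 53.5, 125 and 106 CPM in SS (-0.59, SE 0.35). The genotypes overlapped, and without the 3 leukocyte-rich libraries its value was -0.03.

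Klf1, the factor that activates adult beta globin, Epor, the erythropoietin receptor, and Trim10, a protein of terminal red cell maturation, had log2 fold changes of -0.36, 0.79 and -0.22. The value of Epor was the highest of the 28. SS replicate 4 was at 36.6 CPM, SS replicates 1 to 3 ran from 5.69 to 11.5 CPM and SA from 4.81 to 14.97 CPM. Without SS replicate 4 the log2 fold change of Epor was -0.15 and that of Klf1 was -0.96. Klf1 was at -0.07 without SA replicate 4 and at -0.86 with the leukocyte covariate. Trim10 stood at 0.76 without the 3 leukocyte-rich libraries, at 0.67 with the covariate, at 0.02 without SS replicate 2 and at 0.21 without SA replicate 1.

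The red cell enzymes differed in how they spread. Car1, a carbonic anhydrase abundant in red cells, was at 205, 225, 213 and 197 CPM in SA and at 96.0, 33.3, 83.8 and 217 CPM in SS. The SA libraries lay close together, 3 SS libraries were below all of them and SS replicate 4 lay among them. The mean was 210 ± 12.1 CPM in SA and 108 ± 78.1 CPM in SS (SD, n = 4 each), a log2 fold change of -0.96 (SE 0.44, edgeR adjusted p = 0.714). It was -1.56 without SS replicate 4, -0.66 without SS replicate 2 and -0.87 without the 3 leukocyte-rich libraries.

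Car2, a carbonic anhydrase with a wider range of tissues, was at 399, 448, 364 and 309 CPM in SA and at 377, 112, 271 and 403 CPM in SS. Only SS replicates 2 and 3 were below the SA range (-0.39, SE 0.34), and without SS replicate 2 the log2 fold change was -0.11. Bpgm, which makes the 2,3-bisphosphoglycerate that lowers the oxygen affinity of haemoglobin, had a log2 fold change of 0.06 (SE 0.63) and ran from 10.5 CPM in SA replicate 4 to 120 CPM in SS replicate 1.

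Membrane and skeleton genes were below 0 in 8 of 9 cases, with a median log2 fold change of -0.19 and none past the threshold, where 51% of all tested genes were below 0. The count was 6 of 9 with the leukocyte covariate (median -0.08), without the 3 leukocyte-rich libraries (median -0.28) and without SS replicate 4 (median -0.40), and 5 of 9 without SS replicate 2 (median -0.09). Slc4a1 was at 440, 446, 149 and 112 CPM in SA and at 513, 96.4, 300 and 122 CPM in SS. In both genotypes the libraries rich in leukocyte transcripts were highest (log2 fold change -0.15, SE 0.58). It was 0.97 with the leukocyte covariate (edgeR adjusted p = 0.412) and 0.40 without those 3 libraries, 0.12 without SS replicate 2 and 0.08 without SS replicate 4. Epb42, the protein that ties band 3 to the skeleton, was at -0.12 in all libraries, 0.79 with the covariate, 0.33 without the 3 libraries, 0.17 without SS replicate 2 and 0.11 without SS replicate 4.

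Tspo2, an erythroid protein of the translocator family, was at 12.0, 16.3, 5.15 and 6.04 CPM in SA and at 5.07, 5.14, 5.20 and 3.48 CPM in SS. SA replicates 3 and 4 came within or close to the SS range (-1.06, SE 0.55, edgeR adjusted p = 0.738). Its value was -0.28 without the 3 leukocyte-rich libraries. Aqp1 was at 97.98, 207, 123 and 113 CPM in SA and at 112, 45.1, 37.7 and 125 CPM in SS, with SS replicates 2 and 3 below all others (-0.76, SE 0.41, edgeR adjusted p = 0.747). It was -0.77 without those 3 libraries.

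Of the other membrane genes, Rhag, which carries ammonia and holds the Rh complex together, was above 0 (0.38, SE 0.44). Sptb, the beta chain of red cell spectrin, was at -0.46, Ermap, an erythroblast membrane protein, at -0.44, Rhd, the Rh protein, at -0.17 and Cldn13 at -0.19. SS replicate 2 was the lowest library for all 5 of these genes. Without it Rhag was at 0.67, Sptb at -0.19, Ermap at -0.15, Rhd at 0.06 and Cldn13 at -0.09.

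Heme synthesis starts with the joining of glycine and succinyl-CoA by ALAS2 in red cell precursors and by ALAS1 in other cells, and ends with the insertion of iron by FECH. With all 8 libraries the 7 enzymes had log2 fold changes below 0, from -1.02 to -0.09 (51% of all tested genes were below 0), and none passed. The count was 4 of 7 with the leukocyte covariate (median -0.22), 3 of 7 without the 3 leukocyte-rich libraries (median 0.02) and 4 of 7 without SA replicate 2 (median -0.01). It was 7 of 7 without SS replicate 2 (median -0.17) and 6 of 7 without SS replicate 4 (median -0.16). Alas2 was at 84.6, 98.7, 29.8 and 7.25 CPM in SA and at 119, 19.0, 20.6 and 17.2 CPM in SS. SA replicates 1 and 2 and SS replicate 1 were high and all others low (-0.33, SE 0.81). The value was 1.26 with the leukocyte covariate, 0.03 without the 3 leukocyte-rich libraries and -1.54 without SS replicate 1. It was -0.07 without SS replicate 2 and -0.06 without SS replicate 4.

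Alad, which makes porphobilinogen, was at 21.2, 118, 9.27 and 30.5 CPM in SA and at 21.8, 8.87, 19.2 and 38.3 CPM in SS. SA replicate 2 alone lay above the SS range (-1.02, SE 0.71), and without it the value was 0.12. Urod, which makes coproporphyrinogen, was at 28.9, 24.1, 32.1 and 25.9 CPM in SA and at 25.9, 16.3, 19.1 and 20.4 CPM in SS. SS replicate 1 overlapped with SA and the other 3 SS libraries were below all of SA (-0.44, SE 0.29, edgeR adjusted p = 0.775). It ran from -0.58 to -0.35 with each library left out and was -0.64 without the 3 leukocyte-rich libraries.

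The later enzymes Cpox, Ppox and Fech and the earlier Uros were at -0.40, -0.15, -0.14 and -0.09, with SE from 0.23 for Fech to 0.41 for Uros. Uros was at 0.06 without SS replicate 4 and Cpox at -0.17 without SS replicate 2. Per length these 4 and Urod stood close together, from 6.78 CPM per kb for Uros to 9.30 CPM per kb for Urod, below Alas2 at 20.6 and Alad at 17.9 CPM per kb. The spread between libraries was 1.85-fold for Fech against 16.4-fold for Alas2. Reads of Cpox, Ppox, Uros, Sptb and Alas2 may include some of genes that overlap them on the opposite strand, since no source used here gives the strand setting.

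**Figure D5:**
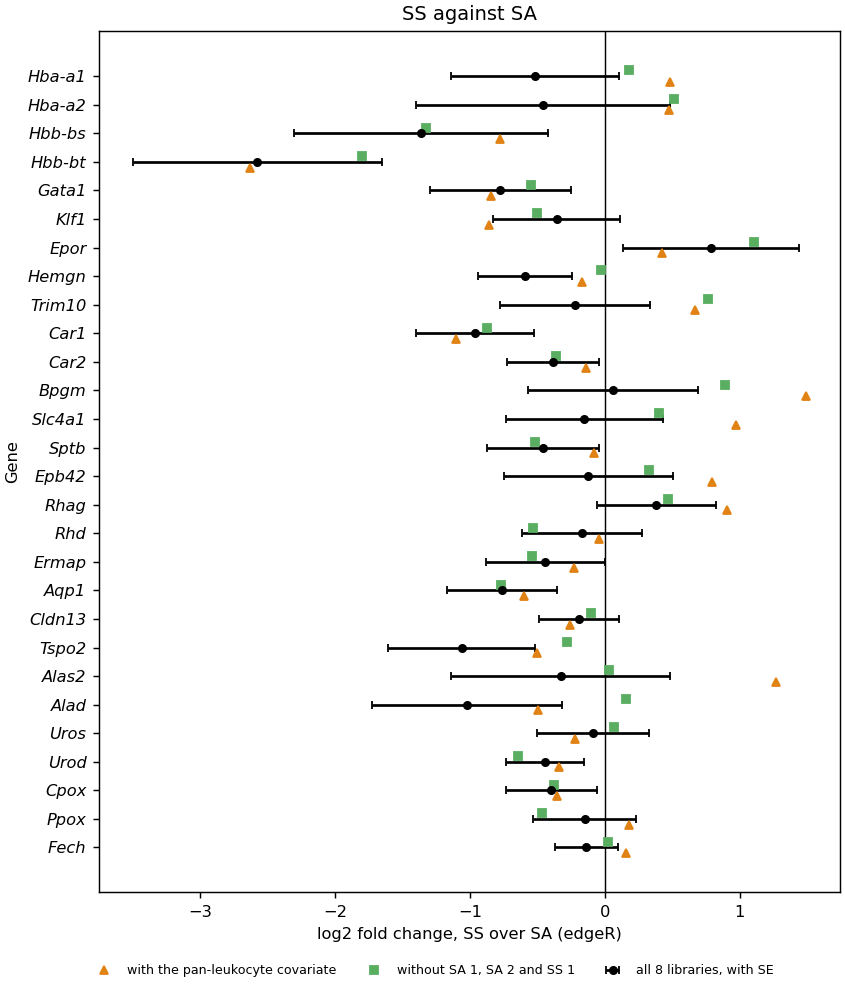
Log2 fold change of SS over SA by edgeR for the 28 genes with all 8 libraries (black, bars are SE), with the pan-leukocyte level as a covariate (orange triangles) and without SA replicates 1 and 2 and SS replicate 1 (green squares). Hbb-bt is the farthest below 0 under all 3, and Slc4a1, Epb42, Trim10 and Bpgm lie above 0 under the last 2.

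Another 48 genes of the same pathways were read from the same test: 8 globins, 10 regulators, 15 membrane and skeleton genes and 15 genes of heme and iron handling. 46 of them had a row, 41 were tested and none passed by edgeR or DESeq2. By edgeR 4 had an unadjusted p under 0.05, the same 6.98% of all genes being the background, and 35 of the 41 were below 0, with a median of -0.43, against 51% of all tested genes. With the leukocyte covariate 25 of 41 were below 0 (median -0.15), without the 3 leukocyte-rich libraries 32 of 41 (median -0.24), without SS replicate 2 30 of 42 (median -0.26) and without SS replicate 4 31 of 42 (median -0.49).

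The 4 with the smallest p were Stat5a, Alas1, Nfe2 and Slc25a38. Stat5a, a signal transducer of the erythropoietin receptor and of other cytokine receptors, was at 103, 26.9, 91.2 and 95.2 CPM in SA and at 33.8, 33.3, 32.7 and 38.5 CPM in SS. SA replicate 2 was below every SS library and the other SA libraries were above them (-1.19, SE 0.37, edgeR adjusted p = 0.680). Nfe2, a factor of red cells and platelets, was at -1.19 (SE 0.51), Alas1 at -0.94 (SE 0.37) and Slc25a38, a mitochondrial carrier that brings in glycine for heme, at -1.18 (SE 0.51). Xk, a red cell membrane protein, followed at -0.93 (SE 0.43). Tfrc, the transferrin receptor that brings in iron, was at -0.56 (SE 0.34).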

How the data were processed

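Each library's 2 lanes were together in 1 column of raw counts per gene, as the authors deposited them. Per the submitters' processing notes, the tools were bcl2fastq, STAR, featureCounts and DESeq2 (versions and roles not stated) and the builds mm10 and GRCm38. No source used here gives the annotation or strand setting. Human globin genes were not analysed here. The genotypes were compared with edgeR 4.0.16 under R 4.3.3 after filterByExpr and TMM scaling, by its robust quasi-likelihood F test (p-values adjusted by Benjamini-Hochberg over 17316 genes, threshold 0.05). CPM were computed from the deposited counts and TMM-scaled totals, and CPM per kb used the exon union of GENCODE M21 on GRCm38. SE was taken as the log2 fold change over the square root of F. Library totals were 24797857 to 31117007, and floors of 3 counts cover counting error only. Alternatives were DESeq2 1.42.0, limma-voom (limma 3.58.1), RLE factors, no low-count filter, a replicate block, a covariate (mean log2 CPM of 15 pan-leukocyte genes), omission of the 3 leukocyte-rich libraries and omission of each library. Scripts were tested on simulated counts. Members, lists and alternatives were chosen with earlier results of these data known. Genes given in detail are the 4 adult globins, members called by edgeR or DESeq2, and in each role the 2 with the smallest edgeR p and the one with the highest level per length. Of other pathway genes 8 were preset and 4 more had the smallest p, and some of these are not reported here. Other genes named with values were chosen after these were seen.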

Additional observations from a re-analysis of the deposited data

Results flagged for a closer look

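5 of 56 sets of 4 libraries (28 genes in 2 genotypes) held a library set apart from the other 3 by a gap that Dixon's test finds in about 1 of 20 sets by chance, which is 2.8 of 56. In SS, Klf1 reached 55.0 CPM in replicate 4, with replicates 1 to 3 at 15.3 to 20.7 CPM. Alas2 reached 119 CPM in SS replicate 1, with replicates 2 to 4 at 17.2 to 20.6 CPM. Tspo2 was lowest in SS replicate 4, at 3.48 CPM, with replicates 1 to 3 at 5.07 to 5.20 CPM. In SA, Rhag was lowest in replicate 4, at 16.5 CPM, with replicates 1 to 3 at 36.9 to 40.7 CPM. Ermap reached 137 CPM in SA replicate 1, with replicates 2 to 4 at 86.7 to 90.3 CPM.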

How the results depend on the processing

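DESeq2 called 315 genes, 1 of them among the 28 (Hbb-bt, log2 fold change -2.61), and edgeR without a low-count filter called 5. With each library left out, edgeR called 0 to 1 genes (1 without SS replicate 1), and 0 of the 28 and of the other pathway genes. The median log2 fold change of the 28 then ran from -0.62 to -0.18. Of the 14 genes given in detail, 9 stayed below 0 under every setting run. With the leukocyte covariate the values of Hba-a1, Hba-a2, Slc4a1 and Alas2 were 0.48, 0.48, 0.97 and 1.26. Without the 3 leukocyte-rich libraries those of Hba-a1, Hba-a2, Slc4a1, Alad and Alas2 were 0.18, 0.51, 0.40, 0.16 and 0.028. With each library left out, Slc4a1 ran from -0.73 to 0.14, Alad from -1.43 to 0.12 and Alas2 from -1.54 to 0.12. The cause of these reversals was not tested. With the replicate block edgeR called 0 genes (1255 at an unadjusted p under 0.05, against 1209 without it) and the median of the 28 was -0.40. Deviations of same-numbered libraries correlated at 0.222, -0.15, -0.0201 and 0.143, and only for replicate 1 was the same-numbered library the best match. These values do not show that the numbers pair the samples, and they cannot exclude it. Hbb-bs had at most 61 and Hba-a2 at most 39 counts in any library, and Hbb-bt had 9 to 20 counts in SS. These low counts limit the precision of the values of these genes.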

Other observations

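Ratios within a library, chosen after the values were seen and not tested, differed between libraries of 1 genotype. Band 3 (Slc4a1) over Klf1, both per kb, came in order of replicate number to 7.29, 3.78, 1.56 and 0.659 for SA and to 7.74, 1.75, 6.13 and 0.693 for SS. Alas2 over Alas1, both per kb, was 8.01, 5.86, 4.31 and 0.819 in SA and 16.9, 3.10, 5.29 and 3.13 in SS. Replicate 4 of each genotype had the lowest band 3 ratio of its genotype.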
